A study of Homo sapiens with 9 samples.

Results

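The genes described here are 57 genes of mitosis, chosen by gene symbol: the cyclins and kinases of the G2/M step, the spindle checkpoint, the kinetochore, the mitotic kinesins, the condensin complex and the machinery of cytokinesis. All 57 were found among the 24344 genes of the count table, and all 57 were among the 14195 genes with enough counts to be tested. RNA was sequenced from MDA-MB-231 cells, a long-used line from a human breast adenocarcinoma, kept in DMEM with fetal bovine serum. Cells received an injection for 48 h: CKI (Compound Kushen Injection, prepared from 2 herbs, Kushen and Baituling) at 2 mg/mL total alkaloid, or an injection of Kushen alone or of Baituling alone, both prepared as CKI is and brought to a matching dilution. Each treatment had 3 libraries, labelled biological replicates of a single cell line, so the spread between them is that of replicate treatments of this line. The purpose of the comparison was to find what each herb contributes to the action of CKI, and untreated cells were not analysed here. Every fold change below therefore sets an injection against another injection.

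In mitosis the duplicated chromosomes are condensed, attached to the spindle through their kinetochores and pulled apart, after which the cell is cut into its daughters. CDK1 bound to cyclin B starts the process. The spindle checkpoint delays it until all chromosomes are attached, and the anaphase-promoting complex ends it by marking cyclin B and securin for destruction. Many of the genes involved are transcribed mainly in G2 and mitosis, under factors that include FOXM1, the DREAM and MuvB complexes and NF-Y, and their transcripts are widely used as a measure of how many cells in a culture are dividing. In RNA from whole cultures, fewer dividing cells and less of a transcript per cell cannot be told apart.

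The total count per library was 20144628 to 23782071. Together the 57 genes took 0.720% to 0.738% of all counts with Baituling, 0.330% to 0.342% with Kushen and 0.306% to 0.309% with CKI. Their share was thus highest with Baituling and lowest with CKI, and no library of a treatment reached into the range of another. Levels are given below as CPM, the counts per 1000000 counts of a library, after scaling library sizes by TMM (trimmed mean of M values). The coefficient of variation between the 3 libraries of a treatment had a median over the 57 genes of 2.70% with Baituling, 3.21% with Kushen and 3.79% with CKI, and its highest value was 15.2%, for MKI67 with Baituling. The markers chosen for the line went with its label in part: VIM (vimentin), CD44, AXL, CAV1 and KRT18 were present in all libraries, while ESR1 and PGR, the oestrogen and progesterone receptors, were at most 0.118 and 0.177 CPM. The epithelial markers CDH1 and EPCAM were low but not at 0, with 0.443 to 2.82 and 6.93 to 13.8 CPM. The 5 expected markers also moved with the treatments, with a summed level of 4722 to 4872 CPM with Baituling, 2294 to 2332 with Kushen and 1769 to 1839 with CKI. VIM was at 2014 to 2116 CPM with Baituling and 336 to 364 with CKI. Unlike the sum, CAV1 was slightly higher with CKI (176 to 180 CPM) than with Kushen (162 to 173). The 7 markers of other cell types that the table holds (of 8 chosen, for leukocytes, endothelium, hepatocytes and melanocytes) summed to 4.98 to 6.02, 8.65 to 9.44 and 7.96 to 10.1 CPM, with CD3E at most 0.158 and ALB at most 0.282. The highest of them was PMEL, at 3.90 to 7.66 CPM, followed by APOA1, at most 1.21, and VWF, at most 1.03. VWF was at most 0.166 CPM with Baituling and 0.706 to 1.03 with CKI. The part of these movements in the results below was not tested.

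Short promoter stretches are shown first for the genes at the ends of the range, because many mitotic promoters share a pair of sequence features. These are the CHR (cell cycle genes homology region), whose core reads TTTGAA or TTTAAA and which MuvB complexes are known to bind, and the CCAAT box bound by NF-Y. The stretches come from RefSeq promoters on GRCh38.p14, are written 5′ to 3′ on the strand of the gene, and carry these letters in capitals on either strand. KIF20A, which fell most in CKI against Baituling, is shown from 100 bases before its transcript start to the fifth base of the transcript (chr5:138179012-138179116, plus strand).
KIF20A: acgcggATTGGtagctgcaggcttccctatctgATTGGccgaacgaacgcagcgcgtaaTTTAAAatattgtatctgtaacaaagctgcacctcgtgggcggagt
PLK1, which fell most in Kushen against Baituling, is shown over the same span (chr16:23678789-23678893, plus strand).
PLK1: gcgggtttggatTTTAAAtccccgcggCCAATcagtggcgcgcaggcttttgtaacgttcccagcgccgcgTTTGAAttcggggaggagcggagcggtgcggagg
SMC2, which changed least in both comparisons with Baituling, is shown from 25 bases before the first of its transcript starts to the fifth base of the transcript (chr9:104094284-104094313, plus strand).
SMC2: gggtcctttgctcgcgccgaaaTTCAAAgg

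Positions are counted from the transcript start to the leftmost base of a match. KIF20A held a CHR-like match at -41, with CCAAT letters on the opposite strand at -94 and -67. PLK1 held CHR-like matches at -88 and -29 and a CCAAT at -73 in the stretch shown, and another CHR-like match upstream of it at -148. SMC2 held a single CHR-like match, at -3, no CCAAT letters in its window, and neither in the window of its other transcript start. The windows searched ran from 250 bases before to 50 after the start, and 49 of the 57 genes matched the RefSeq table; the others were AURKA, TTK, FOXM1, BUB3, UBE2C, BIRC5, TPX2 and RACGAP1. Over the 41 genes with a single window, TTTGAA or TTTAAA on either strand was present in 36, or 87.8%, against 14.9% of the 8112 tested genes with a single window. Within 50 bases of the start the same letters were present in 31 of the 41, or 75.6%, against 4.36%. CCAAT on either strand was present in 32 of the 41, or 78%, against 37.4%, and both sets of letters in 28, or 68.3%, against 6.31%. The E2F-like letters GCGGGAA were present in 3 of the 41, or 7.32%, against 10.4%. The mitotic genes thus held CHR-like and CCAAT letters in a larger share of windows than the tested genes did, while the share with the E2F-like letters, resting on 3 windows, was near that of the tested genes. The matches also clustered by distance: 31.7% of the 41 windows had a CHR-like match starting in the 25 bases from -50 and 29.3% in the 25 bases from -25, against 1.78% and 0.937% of all tested windows. For CCAAT letters the fullest bin was the 25 bases from -75, with 56.1% against 10.8%. A match of letters is a description and not a site of binding.

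**Figure D1:**
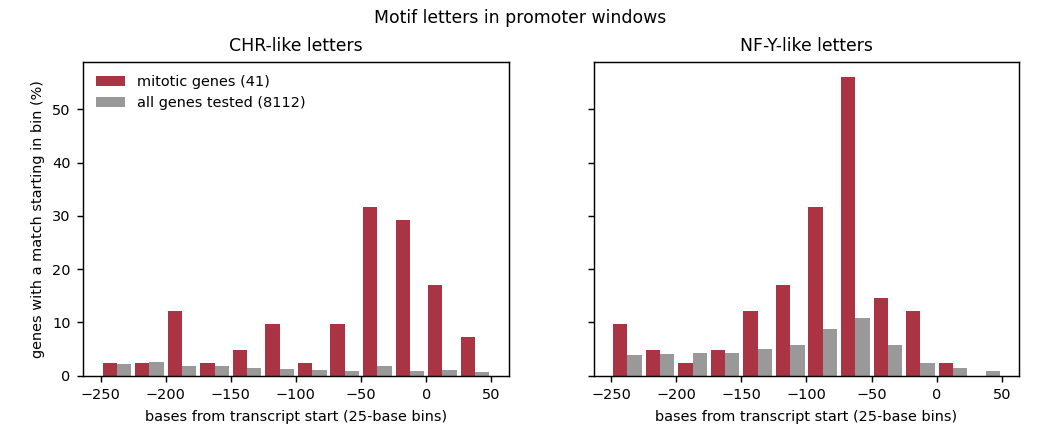
Share of promoter windows (vertical axis, %) with a match starting in each 25-base bin (horizontal axis, bases from the transcript start), for CHR-like letters (left) and NF-Y-like CCAAT letters (right). Red bars are the 41 mitotic genes with a single window and grey bars all 8112 tested genes with a single window; the red CHR-like bars peak just before the start (31.7% and 29.3%) and the red CCAAT bars in the bin from -75 (56.1%).

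The first comparison was CKI against Baituling, that is the combined injection against Baituling alone. All 57 genes were lower with CKI at an adjusted p under 0.05, where 37% of all tested genes were lower, and 47 of them were past a log2 fold change of -1, the threshold of the study, where 7.91% of all tested genes were. Tests were edgeR's quasi-likelihood test, with p-values adjusted over all 14195 genes. For all 57 the 3 Baituling libraries lay above the 3 CKI libraries, an ordering without overlap held by 38% of all tested genes. The median log2 fold change of the 57 was -1.50, with a range from -2.86 (KIF20A) to -0.39 (SMC2), while the median of all tested genes was 0.03. No gene of the 57 rose in this comparison by edgeR or by DESeq2, nor at an unadjusted p under 0.05.

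Kushen against Baituling sets the herbs against each other. Here too all 57 genes were lower, with Kushen below Baituling, where 36.1% of all tested genes were lower, and 43 were past the fold threshold, where 6.73% of all tested genes were. The Baituling libraries lay above the Kushen libraries for all 57, an ordering held by 36.7% of all tested genes. The median log2 fold change was -1.30 against 0.02 for all tested genes, and the range ran from -2.35 (PLK1) to -0.36 (SMC2). Again none rose, by edgeR, by DESeq2 or at an unadjusted p under 0.05. These first 2 comparisons share the Baituling libraries, so their values are not independent of each other. A scaling by library totals moved the median of all genes by 0.29 for CKI and 0.21 for Kushen, each against Baituling, and changed the shares of all tested genes called lower and higher from 37% and 39.1% to 22.6% and 57% in the former and from 36.1% and 35.6% to 24.6% and 50.6% in the latter. Under that scaling 56 of the 57 genes were still lower with CKI than with Baituling, all but SMC2, and all 57 were lower with Kushen.

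**Figure D2:**
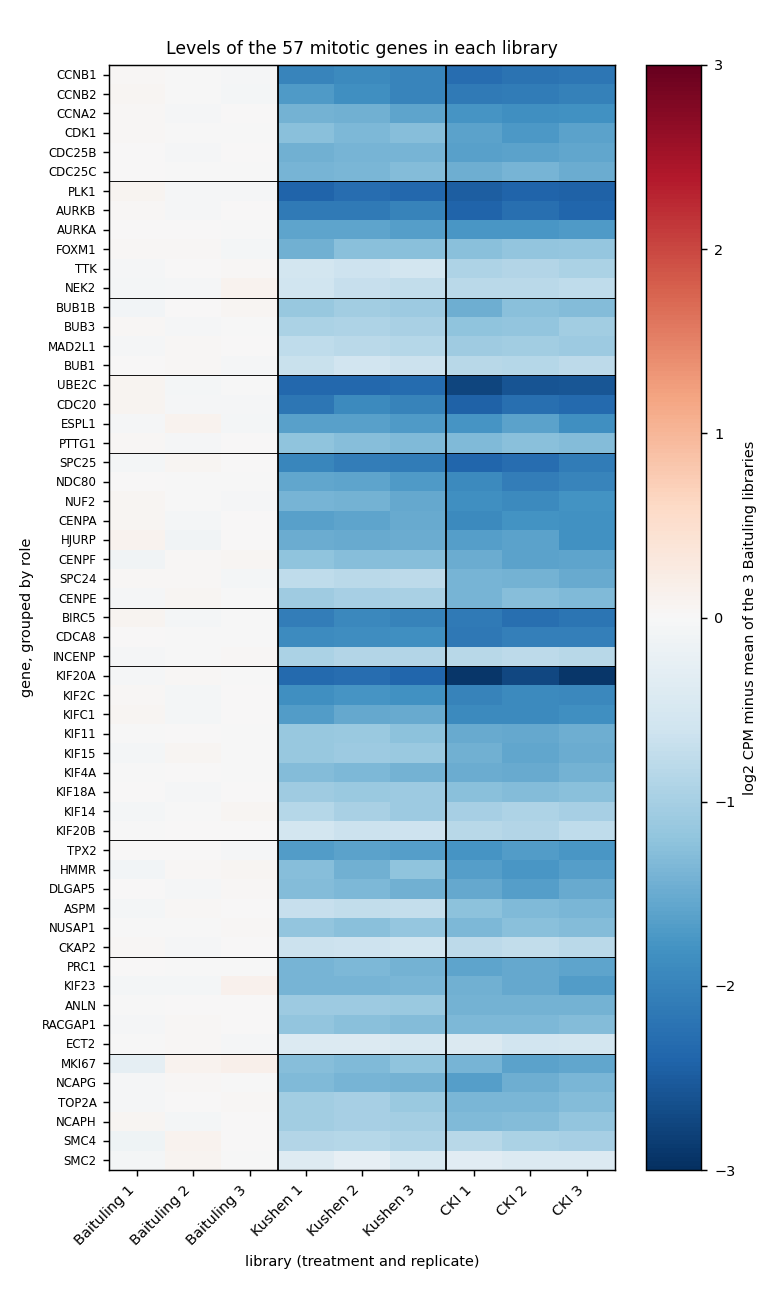
Level of each of the 57 genes (rows, grouped by role) in each of the 9 libraries (columns), as log2 CPM minus the mean of the 3 Baituling libraries, on a colour scale from -3 to 3. Every row is blue in all Kushen and CKI libraries, darkest for KIF20A with CKI, and the rows of SMC2 and ECT2 are palest.

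CKI against Kushen asks what the presence of Baituling adds to Kushen, and the differences were small. By edgeR's test 39 of the 57 genes were lower with CKI, where 20.2% of all tested genes were lower, 18 did not pass, and none was higher, also by DESeq2 and at an unadjusted p under 0.05, where 19.6% of all tested genes were higher. None passed a log2 fold change of -1, as 0.197% of all tested genes did. The Kushen libraries lay above the CKI libraries without overlap for 43 of the 57 (24.2% of all tested genes), and the CKI libraries above for FOXM1 and INCENP (25.2% of all tested genes). The median log2 fold change was -0.21, against 0.01 for all tested genes, with a range from -0.65 (SPC24) to 0.11 (FOXM1). The 3 treatments were therefore ordered Baituling above Kushen above CKI without overlap for 43 genes, an order held by 11.3% of all tested genes, and Baituling above CKI above Kushen for FOXM1 and INCENP, an order held by 4.54%. Under library totals, with 12.9% of all tested genes lower and 29.7% higher, 28 of the 57 were lower and 2, FOXM1 and INCENP, were higher, so the absence of higher genes holds only under the other scalings tried.

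**Figure D3:**
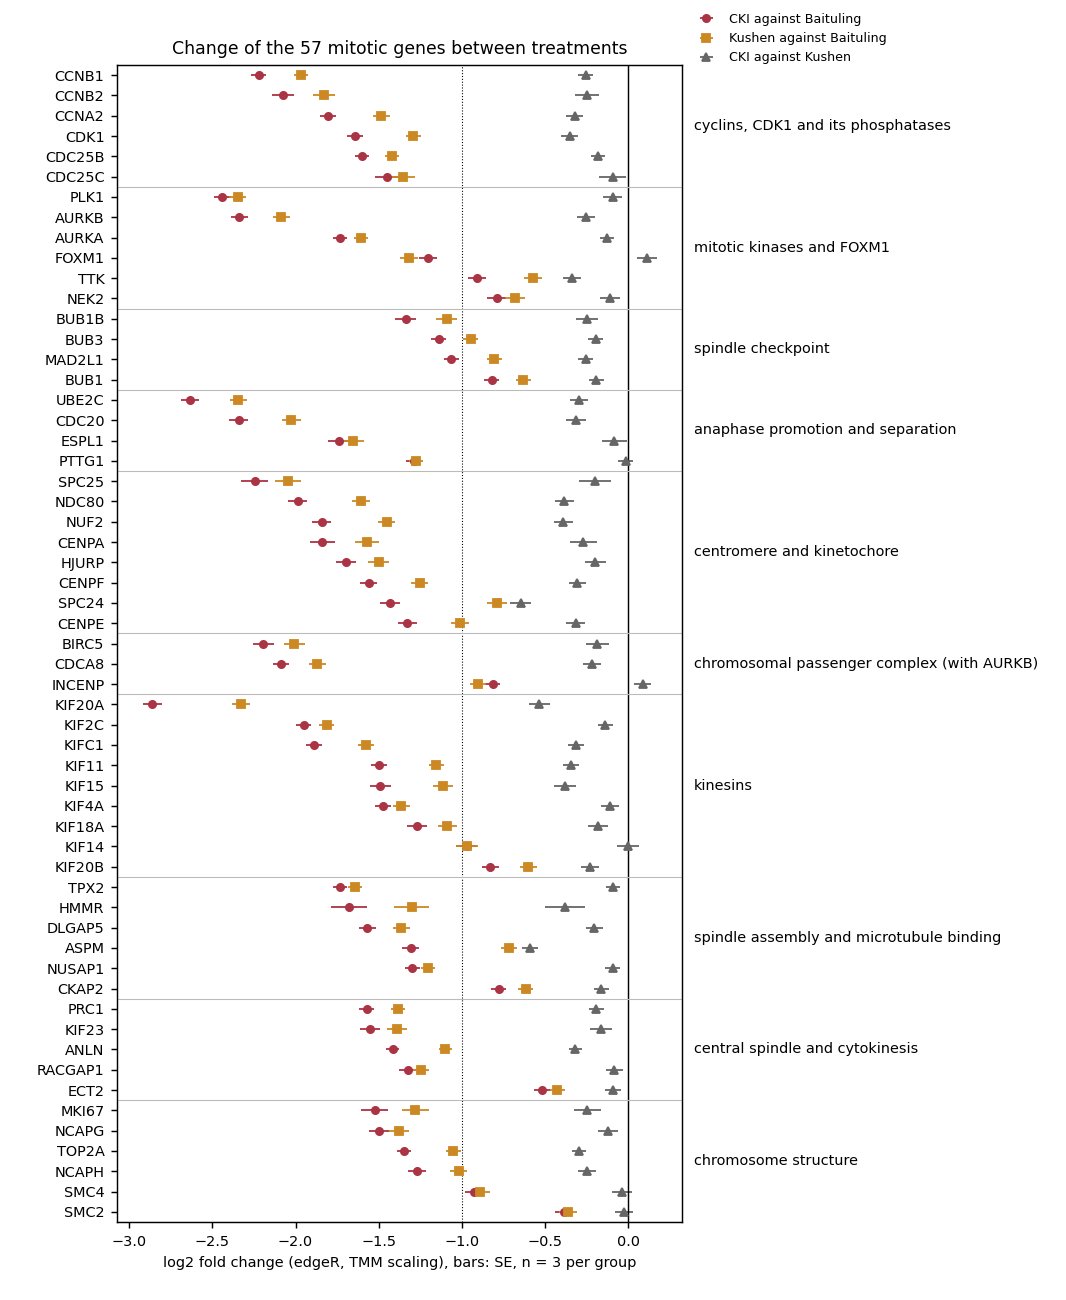
Log2 fold change (horizontal axis) of the 57 genes, grouped by role, in CKI against Baituling (circles), Kushen against Baituling (squares) and CKI against Kushen (triangles), with bars of 1 standard error from edgeR and 3 libraries per treatment. The dotted line marks -1; 47 circles and 43 squares lie to its left, and no triangle does.

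The genes that start mitosis fell together. CCNA2, CCNB1 and CCNB2 encode cyclins A2, B1 and B2, CDK1 the kinase they activate, and CDC25B and CDC25C the phosphatases that remove its inhibiting phosphates. All 6 fell past the fold threshold in both comparisons with Baituling, with median log2 fold changes of -1.72 for CKI and -1.45 for Kushen. CCNB1 was at 323, 316 and 309.9 CPM in the Baituling libraries, 79.5, 83.6 and 79.4 in the Kushen libraries and 65.2, 67.6 and 70.4 in the CKI libraries. The 3 treatments did not overlap, and most of the distance lay between Baituling and the other two. CCNB1 had a log2 fold change of -2.22 ± 0.04 (SE) in CKI against Baituling (edgeR adjusted p = 1.36e-18) and -1.97 ± 0.04 in Kushen against Baituling (edgeR adjusted p = 9.28e-18), which is 4.67-fold and 3.91-fold lower. The step from Kushen to CKI was -0.26 ± 0.05 (edgeR adjusted p = 0.000184).

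CDK1 was at 189.8, 181 and 181 CPM with Baituling, 77.6, 72.2 and 75.7 with Kushen and 60.5, 55.4 and 60.9 with CKI. Its 3 groups were again separate, and its step from Kushen to CKI of -0.35 ± 0.05 was the largest of the 6 (edgeR adjusted p = 1.66e-05). CDC25C fell least in CKI against Baituling among the 6, with 26.1, 25.7 and 25.4 CPM with Baituling, 9.78, 9.89 and 10.5 with Kushen and 9.3, 9.83 and 9.16 with CKI. Its Kushen and CKI libraries overlapped, and their difference of -0.09 ± 0.08 did not pass (edgeR adjusted p = 0.385). CCNA2, CCNB2 and CDC25B lay between CCNB1 and CDC25C, at -1.80, -2.08 and -1.60 in CKI against Baituling, and all 3 were lower with CKI than with Kushen, though CCNB2 did not pass without Kushen replicate 1 or under library totals (-0.17, edgeR adjusted p = 0.0584).

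Among the mitotic kinases the size of the fall varied. PLK1, the polo-like kinase that drives mitotic entry, centrosome maturation and cytokinesis, was at 169, 155 and 155 CPM with Baituling, 30.4, 32.7 and 31.2 with Kushen and 28.8, 30.1 and 29.5 with CKI. It fell 5.43-fold in CKI against Baituling (log2 fold change -2.44 ± 0.05, edgeR adjusted p = 3.34e-18) and 5.09-fold in Kushen against Baituling (-2.35 ± 0.05, edgeR adjusted p = 9.28e-18). Every Kushen library lay above every CKI library, yet the difference of -0.09 ± 0.06 did not pass (edgeR adjusted p = 0.205). About 12.8% of the exon bases of PLK1 overlap genes on the opposite strand (ERN2 and a gene without a symbol), and the libraries were unstranded, so reads in those bases cannot be assigned to either.

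AURKB, the kinase of the chromosomal passenger complex, was at 148, 143 and 146 CPM with Baituling, 33.4, 33.4 and 36.5 with Kushen and 27.9, 30.6 and 28.2 with CKI. It fell with log2 fold changes of -2.34 ± 0.05 with CKI and -2.09 ± 0.05 with Kushen against Baituling, and its difference from Kushen to CKI was -0.25 ± 0.06 from Kushen to CKI (edgeR adjusted p = 0.00143). AURKA, the related kinase of the spindle poles, was at 247, 246 and 244 CPM with Baituling, 81.8, 82.2 and 78.1 with Kushen and 72.8, 73.3 and 75.5 with CKI. Its falls were smaller, -1.73 ± 0.04 and -1.60 ± 0.04, and its step from Kushen to CKI of -0.13 ± 0.04 passed narrowly (edgeR adjusted p = 0.021) and did not pass without any one of CKI replicates 1 and 2 and Kushen replicate 2, or under library totals (-0.05, edgeR adjusted p = 0.324).

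NEK2, a centrosomal kinase, fell least of this group in CKI against Baituling. It was at 51.0, 51.6 and 56.8 CPM with Baituling, 34.8, 32.9 and 31.6 with Kushen and 30.2, 30.4 and 31.5 with CKI, with log2 fold changes of -0.79 ± 0.06 for CKI and -0.68 ± 0.06 for Kushen against Baituling. TTK, the checkpoint kinase also known as MPS1, likewise stayed inside the fold threshold, at -0.91 ± 0.05 and -0.57 ± 0.05. It was lower with CKI than with Kushen (-0.34 ± 0.06, edgeR adjusted p = 8.7e-05). NEK2 also lay lower in all CKI libraries than in all Kushen libraries, but its difference of -0.11 ± 0.06 did not pass (edgeR adjusted p = 0.157). FOXM1, the forkhead transcription factor of G2/M genes, was at 90.6, 90.0 and 84.9 CPM with Baituling, 32.7, 37.0 and 36.9 with Kushen and 37.3, 38.6 and 39.3 with CKI. It is one of 2 genes of the 57 whose CKI libraries all lay above the Kushen libraries, although the difference of 0.11 ± 0.06 did not pass (edgeR adjusted p = 0.126) except under library totals (0.19, edgeR adjusted p = 0.00959). Its falls against Baituling were -1.20 ± 0.05 for CKI and -1.32 ± 0.06 for Kushen, and 15.9% of its exon bases overlap ITFG2 on the opposite strand.

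**Figure D4:**
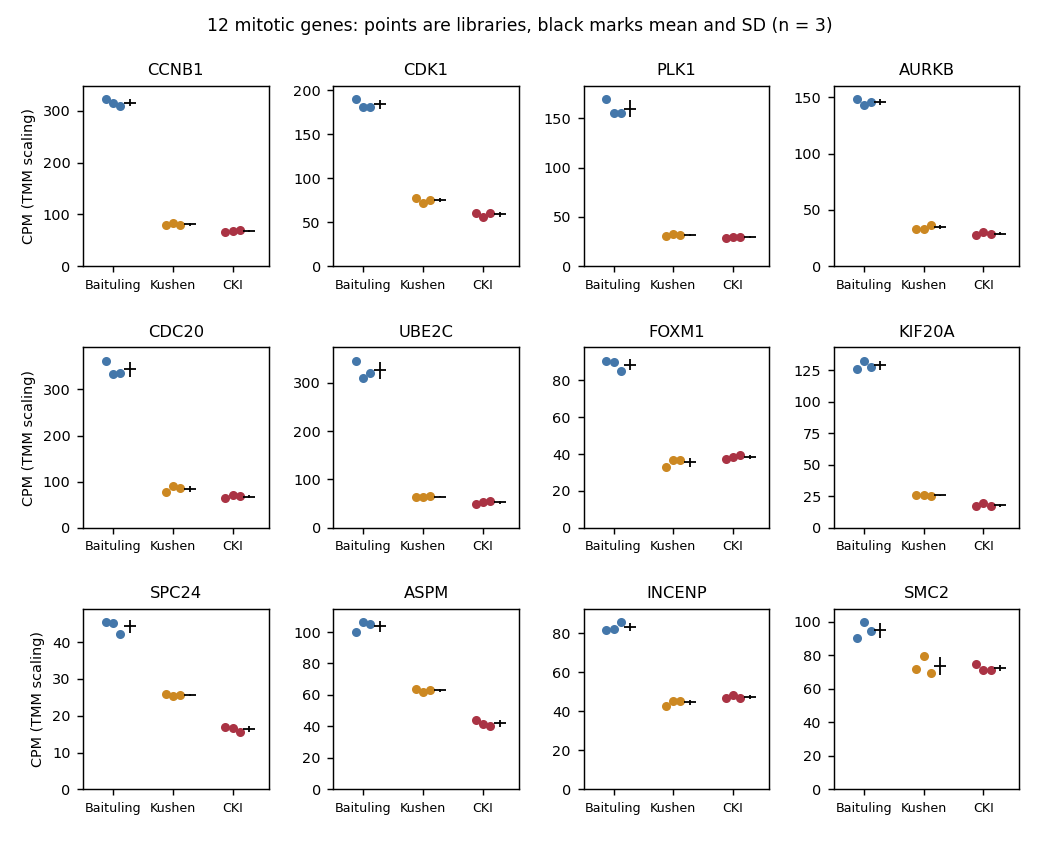
CPM (vertical axis, starting at 0) of 12 of the genes in each library, by treatment (horizontal axis); coloured points are libraries and black marks the mean and SD of 3. KIF20A, UBE2C and PLK1 drop by the largest folds from Baituling to the other treatments, SPC24 and ASPM drop visibly in both steps, and SMC2 drops least.

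The spindle checkpoint genes fell less. BUB1 encodes a checkpoint kinase and BUB1B its relative BUBR1, while BUB3 and MAD2L1 encode their partners at the kinetochore. All 4 were lower with CKI and with Kushen than with Baituling, at medians of -1.10 and -0.88, and 3 were past the fold threshold in CKI against Baituling but only BUB1B in Kushen against Baituling. BUB1B was at 50.1, 53.7 and 55.4 CPM with Baituling, 24.2, 25.6 and 24.9 with Kushen and 19.2, 22.2 and 21.6 with CKI. BUB1 was at 119, 122 and 116 CPM with Baituling, 74.9, 79.6 and 76.6 with Kushen and 66.7, 66.0 and 69.7 with CKI. The groups were separate for both genes, and the distance from Baituling was wider for BUB1B, at -1.34 ± 0.06 against -0.82 ± 0.04 in CKI against Baituling. All 4 were lower with CKI than with Kushen, with log2 fold changes of -0.19 (BUB1) to -0.26 (MAD2L1), though BUB1B did not pass without CKI replicate 1. BUB3 and MAD2L1 were the genes just inside the threshold in CKI against Baituling, at -1.14 and -1.06, with KIF14 (-0.97) and SMC4 (-0.92) just outside it. In Kushen against Baituling NCAPH (-1.02) and CENPE (-1.01) lay just inside, and KIF14 (-0.97) and BUB3 (-0.95) just outside.

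The genes of anaphase promotion and separation had a lower median than the spindle checkpoint genes, a difference that was not tested. CDC20 activates the anaphase-promoting complex, UBE2C is the ubiquitin-conjugating enzyme it works with, PTTG1 encodes securin, and ESPL1 encodes separase, the protease that securin holds back. Against Baituling their medians were -2.04 for CKI and -1.84 for Kushen, and all 4 were past the fold threshold in both. UBE2C was at 345, 309 and 321 CPM with Baituling, 63.5, 63.0 and 65.7 with Kushen and 48.5, 53.7 and 54.7 with CKI. That is 6.22-fold lower with CKI than with Baituling (-2.64 ± 0.05, edgeR adjusted p = 1.54e-18) and 5.07-fold lower with Kushen (-2.34 ± 0.05, edgeR adjusted p = 9.28e-18). CDC20 was at 362, 333 and 334 CPM with Baituling, 76.8, 90.8 and 85.3 with Kushen and 63.5, 71.0 and 68.6 with CKI, with log2 fold changes of -2.34 ± 0.06 and -2.03 ± 0.06. PTTG1 was at 233, 221 and 229 CPM with Baituling, 98.1, 94.0 and 90.2 with Kushen and 91.3, 95.5 and 92.7 with CKI. UBE2C and CDC20 had no overlap between treatments and were lower with CKI than with Kushen, at -0.29 ± 0.05 and -0.32 ± 0.06, whereas the Kushen and CKI libraries of PTTG1 overlapped, with a difference of -0.02 ± 0.04 (edgeR adjusted p = 0.811). ESPL1 was like PTTG1 in this, at -0.08 ± 0.07 (edgeR adjusted p = 0.407).

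At the centromere and kinetochore all 8 genes were past the fold threshold in CKI against Baituling, at a median of -1.77, and 7 for Kushen, at -1.48. CENPA is the histone that marks the centromere and HJURP its chaperone. They fell with log2 fold changes of -1.84 ± 0.07 and -1.70 ± 0.06 in CKI against Baituling. NDC80, NUF2, SPC24 and SPC25 form the complex that grips microtubules, and CENPE and CENPF are large proteins of the outer kinetochore, the former a kinesin. SPC25 was at 33.1, 35.4 and 34.2 CPM with Baituling, 8.77, 8.08 and 7.98 with Kushen and 6.63, 6.97 and 8.06 with CKI. CENPE was at 58.9, 62.1 and 59.1 CPM with Baituling, 28.9, 30.1 and 30.3 with Kushen and 22.9, 24.7 and 24.1 with CKI. These were the widest and the narrowest falls of the group in CKI against Baituling, at -2.24 ± 0.08 and -1.33 ± 0.06. SPC24 was at 45.4, 45.1 and 42.2 CPM with Baituling, 26.0, 25.2 and 25.7 with Kushen and 16.9, 16.7 and 15.6 with CKI. Its libraries formed 3 separate levels with gaps of similar size on the log2 scale, and its fall of -0.65 ± 0.06 from Kushen to CKI was the largest of the 57 (edgeR adjusted p = 2.26e-07), beside -0.79 ± 0.06 from Baituling to Kushen. NDC80, NUF2, CENPE and CENPF also fell from Kushen to CKI, with log2 fold changes of -0.38, -0.39, -0.32 and -0.31. SPC25 gave -0.20 ± 0.09 and did not pass (edgeR adjusted p = 0.103) except when CKI replicate 3 was left out (edgeR adjusted p = 0.0341). CENPA and HJURP passed, but CENPA not without CKI replicate 1 and HJURP not without CKI replicate 3, and neither under library totals (-0.19, edgeR adjusted p = 0.06, and -0.12, edgeR adjusted p = 0.149).

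The chromosomal passenger complex, in which AURKB works, was split. BIRC5 encodes survivin and CDCA8 borealin, the subunits that bring the complex to the centromere, and INCENP its scaffold. BIRC5 was at 79.3, 71.2 and 73.8 CPM with Baituling, 17.7, 19.5 and 18.6 with Kushen and 17.1, 15.5 and 16.4 with CKI. INCENP was at 81.7, 82.3 and 85.5 CPM with Baituling, 42.8, 45.2 and 45.5 with Kushen and 46.5, 48.4 and 46.8 with CKI. Both were highest with Baituling without overlap, but BIRC5 fell 4.57-fold (-2.19 ± 0.06, edgeR adjusted p = 1.66e-16) and INCENP 1.76-fold (-0.82 ± 0.05, edgeR adjusted p = 7.47e-12) in CKI against Baituling. CDCA8 went with BIRC5, at -2.09 ± 0.05. From Kushen to CKI, CDCA8 fell with a log2 fold change of -0.22 ± 0.05 (edgeR adjusted p = 0.00295), while BIRC5 passed narrowly (-0.18 ± 0.07, edgeR adjusted p = 0.0423) and did not pass without any one of CKI replicates 2 and 3, Kushen replicates 2 and 3 and Baituling replicate 3. BIRC5 also did not pass under library totals (-0.11, edgeR adjusted p = 0.214), with the replicate block (edgeR adjusted p = 0.0532), with at least 10 counts in every library (edgeR adjusted p = 0.0506) or in a fit of only the 2 groups compared (edgeR adjusted p = 0.0654). INCENP lay above Kushen in all 3 CKI libraries by 0.09 ± 0.05, which did not pass (edgeR adjusted p = 0.173) except under library totals (0.16, edgeR adjusted p = 0.0138).

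The 9 kinesins, motor proteins that move along or take apart spindle microtubules, had medians of -1.49 (CKI) and -1.15 (Kushen) against Baituling, with 7 past the fold threshold in each. KIF20A, a kinesin of the central spindle needed for cytokinesis, was at 126, 133 and 127 CPM with Baituling, 25.7, 26.3 and 24.9 with Kushen and 16.9, 19.3 and 17.0 with CKI. It fell 7.26-fold in CKI against Baituling (-2.86 ± 0.06, edgeR adjusted p = 1.36e-18) and 5.02-fold in Kushen against Baituling (-2.33 ± 0.05, edgeR adjusted p = 1.79e-17), and its further fall of -0.53 ± 0.06 to CKI was the third largest of the 57 (edgeR adjusted p = 2.32e-06). KIF20B, its nearest relative among these genes, was at 60.6, 62.0 and 62.3 CPM with Baituling, 42.4, 39.6 and 40.0 with Kushen and 34.4, 33.4 and 36.2 with CKI, log2 fold changes of only -0.83 ± 0.05 and -0.60 ± 0.05 against Baituling. KIF14, a kinesin of cytokinesis, was at 47.4, 48.9 and 51.1 CPM with Baituling, 27.3, 24.99 and 22.9 with Kushen and 24.6, 25.7 and 24.8 with CKI. Its Kushen and CKI libraries overlapped and its difference between them was the nearest to 0 of the 57, at -0.00 ± 0.07 (edgeR adjusted p = 0.98). KIF2C, which depolymerises microtubules at the centromere, KIFC1, which clusters centrosomes, and KIF4A, a chromosome-bound kinesin, fell with log2 fold changes of -1.95 ± 0.05, -1.89 ± 0.05 and -1.47 ± 0.05 in CKI against Baituling. KIF11, which pushes the spindle poles apart, its partner KIF15, and KIF18A, which limits microtubule length, fell with log2 fold changes of -1.50 ± 0.05, -1.49 ± 0.06 and -1.27 ± 0.06. From Kushen to CKI, 7 of the 9 passed as lower, KIF4A and KIF14 not. KIF4A, at -0.11 ± 0.05 (edgeR adjusted p = 0.104), passed with the length and GC offset (edgeR adjusted p = 0.025), alone or with the replicate block, and without Kushen replicate 3 (edgeR adjusted p = 0.0431). KIF2C did not pass without any one of CKI replicates 1 and 3 and Kushen replicate 2, nor KIF18A without CKI replicate 2 or Kushen replicate 1. Neither KIF2C nor KIF18A passed under library totals (-0.06, edgeR adjusted p = 0.295, and -0.11, edgeR adjusted p = 0.187).

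Among proteins that build or bind the spindle, all 6 were lower against Baituling, with medians of -1.44 for CKI and -1.25 for Kushen. TPX2, which activates AURKA and nucleates microtubules, was at 448, 445 and 431 CPM with Baituling, 139, 145 and 141 with Kushen and 129, 137 and 133 with CKI. It fell with log2 fold changes of -1.73 ± 0.04 and -1.64 ± 0.04, and its 3 groups were separate although the step of -0.09 ± 0.04 from Kushen to CKI did not pass (edgeR adjusted p = 0.0994). That step passed with the length and GC offset (-0.11, edgeR adjusted p = 0.0134). ASPM, a spindle pole protein known for its link to microcephaly, behaved otherwise, at 99.8, 106 and 105 CPM with Baituling, 63.9, 62.0 and 63.4 with Kushen and 43.97, 41.7 and 40.0 with CKI. Its fall of -0.72 ± 0.05 from Baituling to Kushen was followed by one of -0.59 ± 0.05 from Kushen to CKI, which had the smallest adjusted p of the 57 in that comparison (edgeR, 3.64e-08). CKAP2, a microtubule-stabilising protein, fell least in CKI against Baituling, at 95.7, 91.3 and 94.0 CPM with Baituling, 60.3, 61.3 and 61.7 with Kushen and 54.2, 56.5 and 53.2 with CKI (-0.78 ± 0.05). HMMR, DLGAP5 and NUSAP1, all microtubule-binding, fell with log2 fold changes of -1.68 ± 0.11, -1.57 ± 0.05 and -1.30 ± 0.04. From Kushen to CKI, CKAP2 and DLGAP5 passed (-0.16 ± 0.05 and -0.21 ± 0.05) but not under library totals (-0.09, edgeR adjusted p = 0.15, and -0.13, edgeR adjusted p = 0.0536). HMMR had the lowest counts of the 57, down to 93 in a CKI library, and the largest standard errors, and its call from Kushen to CKI (-0.38 ± 0.12, edgeR adjusted p = 0.0165) was lost without CKI replicate 2 or Kushen replicate 3 and under library totals (-0.30, edgeR adjusted p = 0.0526).

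In the central spindle and cytokinesis group 4 of 5 genes were past the fold threshold in both comparisons with Baituling. PRC1, which bundles the microtubules of the central spindle, was at 159, 158 and 158 CPM with Baituling, 60.4, 62.3 and 59.8 with Kushen and 52.6, 54.5 and 52.9 with CKI, log2 fold changes of -1.57 ± 0.04 and -1.38 ± 0.04. An antisense gene, PRC1-AS1, overlaps 34.3% of its exon bases, and the 2 cannot be told apart there. ECT2, the exchange factor that activates RhoA at the cleavage furrow, was at 151, 156 and 149 CPM with Baituling, 115, 114 and 109.8 with Kushen and 113, 102 and 104 with CKI. Its Baituling libraries were above all others, its Kushen and CKI libraries overlapped, and its log2 fold changes of -0.52 ± 0.05 and -0.43 ± 0.05 were the second smallest of the 57 (edgeR adjusted p = 3.44e-09 and 7.12e-08). KIF23 and RACGAP1, which together form centralspindlin and recruit ECT2, fell with log2 fold changes of -1.55 ± 0.06 and -1.33 ± 0.05 in CKI against Baituling. ANLN, the anillin scaffold of the contractile ring, fell with a log2 fold change of -1.42 ± 0.04, and like PRC1 it was lower with CKI than with Kushen (-0.32 ± 0.04, edgeR adjusted p = 3.44e-06). KIF23 lay lower in all 3 CKI libraries than in all 3 Kushen libraries, at -0.16 ± 0.07, and did not pass (edgeR adjusted p = 0.0559). It passed by DESeq2 (adjusted p = 0.0427) and with the length and GC offset (edgeR adjusted p = 0.0293). It also passed with no filter on low counts (edgeR adjusted p = 0.0235) and without CKI replicate 1 (edgeR adjusted p = 0.0263). The same held without Baituling replicate 1 or 3 (edgeR adjusted p = 0.0372 and 0.0408).

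The last group shapes the chromosomes. TOP2A, the topoisomerase that untangles sister chromatids, was at 419.9, 433 and 441 CPM with Baituling, 209.6, 215 and 200.1 with Kushen and 167, 166 and 176 with CKI, with log2 fold changes of -1.35 ± 0.04 and -1.05 ± 0.04 against Baituling and -0.30 ± 0.04 from Kushen to CKI (edgeR adjusted p = 2.52e-05). MKI67, which encodes the proliferation marker Ki-67 that coats mitotic chromosomes, was at 203, 264 and 271 CPM with Baituling, 101, 97.4 and 105 with Kushen and 93.4, 80.7 and 82.2 with CKI. Its first Baituling library was low, but still above all Kushen and CKI libraries. MKI67 fell with a log2 fold change of -1.52 ± 0.08 in CKI against Baituling, and its fall of -0.24 ± 0.08 from Kushen to CKI (edgeR adjusted p = 0.0229) did not pass by DESeq2, without any one of CKI replicates 2 and 3 and Kushen replicate 3, or under library totals (-0.17, edgeR adjusted p = 0.123).

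The condensin subunits did not fall alike. SMC2 was at 90.6, 99.8 and 94.4 CPM with Baituling, 72.1, 79.6 and 69.6 with Kushen and 74.7, 71.3 and 71.6 with CKI. Its Baituling libraries lay above all others, with a log2 fold change of -0.39 ± 0.05 for CKI (edgeR adjusted p = 2.09e-06) and -0.36 ± 0.05 for Kushen (edgeR adjusted p = 5.74e-06), of which the former was -0.10 under library totals (edgeR adjusted p = 0.103). SMC4, its partner in both condensin complexes, fell with a log2 fold change of -0.92 ± 0.06 in CKI against Baituling. NCAPG and NCAPH, subunits of condensin I alone, fell with log2 fold changes of -1.50 ± 0.06 and -1.27 ± 0.05. LCORL overlaps 33.7% of the exon bases of NCAPG on the opposite strand, and IFT80 and TRIM59 overlap 22% of those of SMC4.

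Genes whose products work together could therefore shift against each other within a library, and some pairs, chosen after their values were seen, were compared as log2 ratios of CPM per kb of exon. The ratio of AURKB to its scaffold INCENP was 1.80 ± 0.04 (SD, n = 3) with Baituling, 0.62 ± 0.06 with Kushen and 0.28 ± 0.04 with CKI. The ratio of KIF20A to KIF20B was 1.90 ± 0.03 with Baituling, 0.17 ± 0.07 with Kushen and -0.13 ± 0.16 with CKI. For KIF23 to ECT2 it was -0.87 ± 0.12, -1.83 ± 0.06 and -1.91 ± 0.09. In these 3 pairs the Baituling libraries lay apart from the rest. NCAPG to SMC2 went from 0.65 ± 0.04 with Baituling to -0.36 ± 0.11 with Kushen and -0.46 ± 0.18 with CKI. The ratio of SPC25 to SPC24, partners in the same dimer, was 0.26 ± 0.08 with Baituling, -0.997 ± 0.06 with Kushen and -0.55 ± 0.21 with CKI, and so was lowest with Kushen and not with CKI.

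Other pairs held their ratio more closely. NDC80 to NUF2 was -0.08 ± 0.03 with Baituling, -0.24 ± 0.01 with Kushen and -0.23 ± 0.07 with CKI, a small shift in which the Baituling libraries were still separate. BIRC5 to CDCA8 was -1.23 ± 0.07, -1.37 ± 0.06 and -1.34 ± 0.13, and CCNB1 to CCNB2 2.00 ± 0.03, 1.86 ± 0.15 and 1.85 ± 0.02. CENPA to HJURP was -0.68 ± 0.06, -0.75 ± 0.06 and -0.82 ± 0.13, and KIF23 to RACGAP1 was -0.73 ± 0.11, -0.87 ± 0.08 and -0.95 ± 0.15. In these pairs the means differed by less than 0.25 between treatments.

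**Figure D5:**
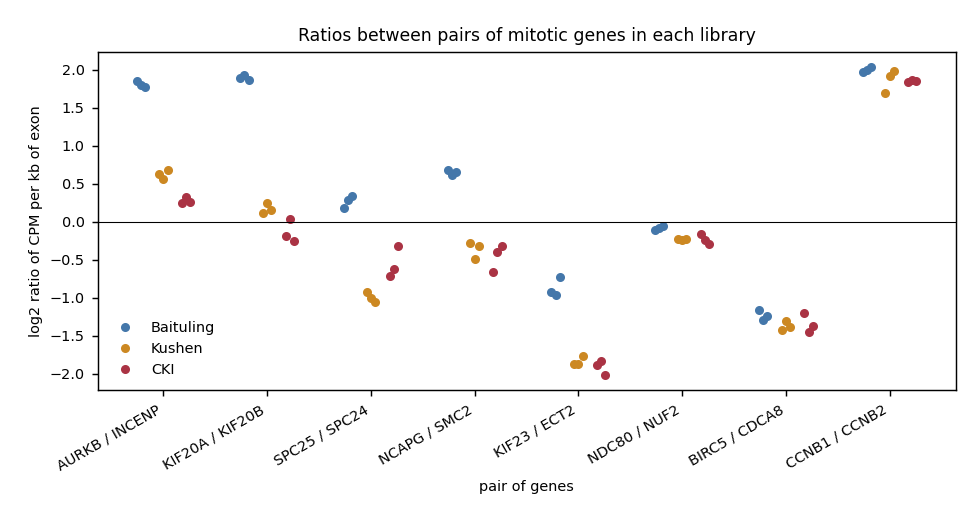
Log2 ratio of CPM per kb of exon (vertical axis) for 8 pairs of the genes (horizontal axis), with a point for each of the 3 libraries of Baituling (blue), Kushen (orange) and CKI (red). AURKB to INCENP, KIF20A to KIF20B, SPC25 to SPC24, NCAPG to SMC2 and KIF23 to ECT2 sit higher with Baituling, whereas NDC80 to NUF2, BIRC5 to CDCA8 and CCNB1 to CCNB2 sit close together.

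Per length of exon, UBE2C was the most abundant of the 57 with Baituling, at 253 CPM per kb, followed by CDC20 at 171, CCNB1 at 130 and TPX2 at 122, and HMMR was the least abundant at 3.19. With CKI the highest were PTTG1 at 47.2 CPM per kb, UBE2C at 40.7, TPX2 at 36.9 and CDC20 at 33.7. The size of the fall did not go with mean level, which was log2 CPM averaged over all 9 libraries without correction for length. For CKI against Baituling the median was -1.51 in the 28 genes of higher mean level and -1.50 in the 29 of lower. The Pearson r was 0.10 and the Spearman rho 0.05. That mean includes the lower Kushen and CKI values, and a relation to CPM per kb with Baituling was not tested. The size of the fall did go with length. The 28 genes with longer exons had a median of -1.32 and the 29 with shorter exons -1.80 (across these 57 genes, which share the libraries and are not independent, Pearson r = 0.41 and Spearman rho = 0.56), and in Kushen against Baituling the medians were -1.07 and -1.57. Among tested genes within the range of exon lengths of the 57, medians were taken in bands set by those lengths, unlike the split above. In CKI against Baituling they moved in the same direction but far less. They were -0.10 in 3677 short genes, -0.03 in 2978 middle genes and 0.08 in 5829 long genes. GC content went the other way, with -1.73 in the 28 genes of higher and -1.33 in the 29 of lower GC content. In CKI against Kushen the medians of longer and shorter genes were -0.19 and -0.25. The part of length and GC content was not told apart from that of gene identity. With an offset for both per library all 57 were lower in the 2 comparisons with Baituling, at medians of -1.62 and -1.34. That offset follows the trend over tested genes, so it cannot decide about the relation with length within the 57.

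The promoter letters and the size of change were set side by side as a description. In CKI against Baituling the 36 genes with CHR-like letters in their single window had a median log2 fold change of -1.56, within a range of -2.86 to -0.82. The 5 without them, BUB1, CCNA2, CKAP2, NEK2 and SPC24, had a median of -0.82 within -1.80 to -0.78, so the ranges overlapped and CCNA2 fell more than the median gene with the letters. In Kushen against Baituling the medians were -1.36 and -0.68, and in CKI against Kushen -0.25 and -0.19. For CCAAT letters the medians in CKI against Baituling were -1.56 in the 32 genes with them and -1.49 in the 9 without. NDC80, NUF2 and KIF2C were among the 9 without CCAAT letters and still fell, with log2 fold changes of -1.99, -1.84 and -1.95.

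Genes around these 57 were read from lists of their pathways, in which every gene was tested, and the genes named from the lists were chosen after their values were seen. Their counts are to be read against all tested genes, of which 37% were lower and 39.1% higher in CKI against Baituling, and 36.1% and 35.6% in Kushen against Baituling. Of 16 subunits and regulators of the anaphase-promoting complex, 12 were lower and 2 higher in CKI against Baituling, but at a median of only -0.18, and under library totals 5 were lower and 7 higher. The activator CDC20 and the enzyme UBE2C described above lay far below that median. The lowest were FBXO5, the inhibitor EMI1, at -1.42 ± 0.07 (edgeR adjusted p = 1.4e-12) and the subunit ANAPC15 at -1.01 ± 0.11. Of 12 cohesin genes 5 were lower and 2 higher, at a median of -0.05, again with 7 higher under library totals, a share of lower genes near that of all tested genes. The lowest were CDCA5 (sororin) at -1.33 ± 0.05 and the shugoshins SGO1 at -0.96 ± 0.10 and SGO2 at -0.89 ± 0.06, which protect cohesion until anaphase.

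Most inner centromere proteins were lower. Of 14 such genes 13 were lower with CKI and 12 with Kushen than with Baituling, at medians of -0.78 and -0.50, with CENPM lowest at -1.52 ± 0.08 and CENPT higher at 0.20 ± 0.08. Of 14 further outer kinetochore genes 12 were lower in each, at medians of -0.62 and -0.42. SKA3 and ZWINT fell most, with log2 fold changes of -1.66 ± 0.07 and -1.26 ± 0.04 in CKI against Baituling, whereas MIS12 rose by 0.32 ± 0.07 (edgeR adjusted p = 0.000276). The 4 other condensin subunits were all lower, from -1.13 (NCAPD2) to -0.37 (NCAPD3). Scaling by library totals left fewer genes lower in each of these lists. In CKI against Baituling the inner centromere list had 10 lower and 1 higher, the outer kinetochore 9 and 3, and the condensin subunits 3 and 0. In Kushen against Baituling the same lists had 9 and 1, 8 and 2, and 3 and 1. Of 12 centrosome genes 10 were lower and none higher by edgeR or DESeq2 (6 lower and 2 higher under library totals, 9 and 1 under upper quartile scaling), with TACC3 at -1.45 ± 0.04 and CEP55 at -1.30 ± 0.05.

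Control of mitotic entry was lower on both sides of the CDK1 switch. Of 10 such genes 8 were lower with CKI and 9 with Kushen than with Baituling, at medians of -0.81 and -0.65. PKMYT1, an inhibiting kinase of CDK1, fell with log2 fold changes of -2.08 ± 0.07 and -2.07 ± 0.07, WEE1, the other such kinase, with -0.97 ± 0.05 and -0.92 ± 0.05, and the cyclin gene CCNF with -1.48 ± 0.07 and -1.45 ± 0.07. PPP2R2A, a subunit of the phosphatase that opposes CDK1, was higher, at 0.38 ± 0.05 for CKI. From Kushen to CKI none of PKMYT1, WEE1 and CCNF passed, with differences of -0.01, -0.05 and -0.03.

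The regulators of G2/M transcription were mixed. Of 12 DREAM and MuvB genes 7 were lower and 4 higher in CKI against Baituling, at a median of -0.29 (5 and 5 under library totals). MYBL2, the B-MYB partner of MuvB in activating these genes, fell with log2 fold changes of -2.10 ± 0.06 with CKI and -1.87 ± 0.06 with Kushen against Baituling. RBL2 (p130), the pocket protein of the repressing DREAM complex, was higher in both, by 0.43 ± 0.07 and 0.87 ± 0.07, and lower with CKI than with Kushen, at -0.44 ± 0.06 (edgeR adjusted p = 1.91e-05). Its relative RBL1 (p107) fell with log2 fold changes of -0.69 ± 0.06 and -0.68 ± 0.06. CDKN1A, the CDK inhibitor p21, rose by 0.72 ± 0.05 in CKI against Baituling and had a log2 fold change of 0.00 ± 0.05 in Kushen against Baituling (edgeR adjusted p = 0.957; under library totals 0.21, with edgeR adjusted p = 0.000111), and it was higher with CKI than with Kushen by 0.72 ± 0.05 (edgeR adjusted p = 6.97e-10). GADD45A, a growth arrest gene, went in opposite directions, at 0.29 ± 0.05 for CKI and -0.70 ± 0.05 for Kushen against Baituling, and was higher with CKI than with Kushen by 0.99 ± 0.05 (edgeR adjusted p = 9.32e-11).

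From Kushen to CKI these lists moved little, and of all tested genes 20.2% were lower and 19.6% higher. Of 16 genes of the anaphase-promoting complex 5 were lower, of 14 inner centromere genes 3 were lower and 1 higher, and of 14 outer kinetochore genes 7 were lower and 1 higher. Of 10 mitotic entry genes 3 were lower and 1 higher, and of 12 centrosome genes 4 were lower. DREAM and MuvB genes were 5 lower and 2 higher, cohesin genes 1 lower and 2 higher, and the other condensin subunits 2 lower. The median log2 fold changes of these lists lay between -0.15, for the outer kinetochore, and 0.02, for the DREAM and MuvB genes, where all tested genes had a median of 0.01. With scaling by library totals 12.9% of all tested genes were lower and 29.7% higher. The anaphase-promoting complex then had 2 lower and 4 higher, and the inner centromere 2 and 3. Counts for the outer kinetochore were 4 and 1, for cohesin 0 and 3 and for the other condensin subunits 2 and 0.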

How the data were processed

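Gene-level RNA-seq counts were used as deposited for 9 unstranded paired-end libraries of the MDA-MB-231 line after 48 h of treatment. The authors trimmed reads with Trim Galore 0.3.7 and aligned them to hg19 with STAR 2.5.3a before making the counts; the counting program and annotation are not given in the sources used here. Columns were assigned to samples by the initial of the treatment and the replicate number. Of 24566 rows, 222 repeated an Ensembl identifier with identical counts and were dropped, leaving 24344 genes, of which 24224 were named from GENCODE v44 lifted to GRCh37, 99 from RefSeq and 21 not at all. Genes passing filterByExpr (minimum count 10, minimum total 15) numbered 14195. Counts were scaled by TMM (factors 0.877 to 1.099) and tested in a single fit of all 9 libraries with group as the only term by edgeR's quasi-likelihood test (edgeR 4.0.16, limma 3.58.1, R 4.3.3), two-sided, with Benjamini-Hochberg adjustment over all genes, after the scripts were tested on simulated data. A gene passed at an adjusted p under 0.05, and was past the fold threshold above a log2 fold change of 1 or below -1. Standard errors are the log2 fold change divided by the square root of F. The biological coefficient of variation was 4.53%, and replicates differed by more than counting error (chi-square per gene 1.70 to 6.85). An exact permutation test of 3 against 3 libraries cannot give a p below 0.1, so none was used.

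The 57 genes, the pathway lists and the markers were chosen with earlier results of these data known. Counts over a further pathway list, which holds CDKN1A and GADD45A, are not reported here. Values in every library are given for the genes with the largest and the smallest change in CKI against Baituling in each role group, for 10 regulators (CCNB1, CDK1, PLK1, AURKA, AURKB, CDC20, FOXM1, TOP2A, MKI67 and BIRC5), and for the 3 largest and 3 smallest changes in CKI against Kushen. Promoters were to be printed for the gene that fell most in CKI against Baituling in each of the 3 role groups whose leading gene fell furthest (KIF20A, UBE2C and PLK1) and for the gene that changed least (SMC2). Opposite-strand overlaps were computed from GENCODE on GRCh37, and promoter sequences are from RefSeq on GRCh38.p14. Besides the overlaps given above, others of the 57 had them too. They included KIFC1 (14.0% of exon bases), NUSAP1 (9.76%), CCNA2 (9.24%), CDC25C (8.80%) and KIF20A (5.35%). Alternatives were DESeq2 1.42.0, library totals, upper quartile scaling, other count filters, a test against the fold threshold, a replicate block, an offset for exon length and GC content, only the 2 groups compared, and leaving out each library.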

Additional observations from a re-analysis of the deposited data

How the results depend on the processing

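No change of direction passed a test under any alternative, and no called gene reversed. The median log2 fold change of the 57 genes in CKI against Baituling (-1.50) was -1.21 with library totals, -1.43 by the upper quartile, -1.46 with at least 10 counts in every library and -1.62 with an offset for exon length and GC content, with or without the replicate block; it ran from -1.52 to -1.49 when each library was left out. In Kushen against Baituling (-1.30) the same alternatives gave -1.09, -1.23, -1.27, -1.34 and -1.34, and leaving out a library -1.34 to -1.28. In CKI against Kushen (-0.21) the median was -0.22 by DESeq2, -0.13 under library totals, -0.22 with the length and GC offset, alone or with the replicate block, and -0.24 to -0.20 without a library. The 57 lower genes were 56 under library totals in CKI against Baituling and stayed 57 in Kushen against Baituling under each alternative that gave this count, the test against the fold threshold giving none. The count past the fold threshold was 42 to 50 in the former and 34 to 46 in the latter. The count lower in CKI against Kushen (39) was 28 under library totals, 44 with the length and GC offset and 34 to 40 without a library, and the count higher (0) was 2 under library totals. Genes added by the length and GC offset were KIF4A, TPX2, NUSAP1, KIF23 and ECT2. The order of Baituling above Kushen above CKI was held by 34 genes under library totals and 44 under upper quartile scaling. In CKI against Kushen the call of BIRC5 was lost without each of 5 libraries and that of MKI67, AURKA and KIF2C without each of 3. That of KIF18A and HMMR was lost without each of 2, and that of CCNB2, HJURP, CENPA and BUB1B without 1. Calls were gained by leaving out a library for KIF23, ECT2, SPC25, NCAPG and KIF4A. The cause was not tested. No pairing of the libraries by replicate number was seen: deviations of same-numbered libraries correlated at -0.07 to 0.12 and of others at -0.15 to 0.18. With 3 libraries per treatment, centred within treatments, these correlations cannot decide whether the numbers pair the libraries. With a replicate block 57, 57 and 38 genes were lower in the 3 comparisons. At these depths the lowest count of any of the 57 genes in a library was 93, for HMMR.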
